A study of Mus musculus with 12 samples.

Results

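Livers of Lcn2 null mice were compared with livers of wild type mice after 8 weeks of injections of carbon tetrachloride (CCl4), by RNA-seq of whole tissue. The comparison rests on the 3 Lcn2 null and the 3 wild type libraries on CCl4, 6 of the 12 libraries of the series, and on the 14445 genes of the deposited table for this contrast, out of 16292 genes in any table. It asks which transcripts depend on lipocalin 2 once the liver is injured repeatedly. The mice of both genotypes were given as female C57BL/6, 8 weeks old at the start. The CCl4 groups, "Lcn2-/- (CCl4)" and "Wild type (CCl4)", received 0.8 ml/kg CCl4 in mineral oil into the peritoneum 2 times per week for 8 weeks. The 3 libraries of "Lcn2-/- (Oil)" and the 3 of "Wild type (Oil)" came from mice given the mineral oil alone, which the CCl4 groups received as the carrier. All mice were sacrificed 48 h after the last injection. The null allele was carried in every cell, so a difference between the genotypes is not tied to 1 cell type. The labels number the replicates without saying that they are separate mice, and p-values measure the spread between libraries, which may be partly technical.

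Lipocalin 2, encoded by Lcn2, is a small secreted protein of neutrophil granules and of injured epithelium that binds iron-loaded bacterial siderophores. Hepatocytes make it as an acute-phase protein. CCl4 is turned into a radical by CYP2E1, an enzyme of the hepatocytes around the central vein (pericentral), and repeated dosing gives rounds of pericentral cell death, regrowth and scar formation by myofibroblasts. Hepatocytes around the portal tract (periportal) are spared longest and carry the urea cycle, gluconeogenesis and much of amino acid breakdown.

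Levels are given in CPM, the reads of a gene per 1000000 reads in genes of its library. The 6 libraries held 7582962 to 14591487 reads in genes, so that 1 read was worth 0.0685 to 0.132 CPM. The deleted gene followed the labels. Lcn2 (chr2:32384633-32388252 on mm10, minus strand) stood at 16.7, 14.6 and 4.63 CPM in the Lcn2 null libraries on CCl4 and at 557, 424 and 405 CPM in the wild type. One library stood apart from its label in another gene. Xist, the RNA that covers the inactive X chromosome of female cells, was at 0.805 CPM in Lcn2 null replicate 2, against 177 and 181 CPM in the other Lcn2 null libraries and 170.1, 196 and 181 CPM in the wild type. The X-linked Eif2s3x was at 57.1 CPM there and at 77.3 to 102 CPM in the other 5. Gm47283 was the only gene placed on chromosome Y in the table. Its level was higher in the wild type libraries, given as female, than in Lcn2 null replicate 2, so it could not tell the sex. The sex of the mouse behind Lcn2 null replicate 2 was therefore not settled, and values without this library are given beside the main results. Markers of hepatocytes were abundant, with a summed level of 113369 to 117586 CPM over 14 genes in the null and 108826 to 121117 CPM in the wild type. Wild type replicate 1 had the highest sums of collagens (2441 CPM against 1140 to 1814 in the other 5) and of bile duct markers (1702 CPM against 1037 to 1427), and Lcn2 null replicate 3 had the lowest sum of monocyte markers (567 CPM against 844 to 1208). In whole tissue, fewer cells of a type and less RNA per cell cannot be told apart.

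Genes were tested with limma on log2(CPM + 1). Those with a Benjamini-Hochberg adjusted p (over all genes) no higher than 0.05 and a change of more than 0.56 on the log2 scale (1.47-fold) are termed called. All fold changes are log2, Lcn2 null over wild type, on this scale, which understates those of low genes. On CCl4, 43 genes were called (0.298% of those tested), 15 higher in the Lcn2 null (0.104%) and 28 lower (0.194%). At an unadjusted p under 0.05 stood 704 genes higher (4.87%) and 548 lower (3.79%). After TMM scaling these were 548 and 729, because that scaling moved the median of all genes from 0.04 to 0.00. The genotype groups did not overlap in 1251 genes that were higher in the null (8.66%) and 803 that were lower (5.56%). The 43 called genes were all among them, so groups being apart in a called gene, as given below, adds nothing to its call. The shares of all genes called, at an unadjusted p under 0.05 and without overlap belong beside the counts of each list below. On oil, 697 of 14202 genes were called (4.91%), more than on CCl4. DESeq2 on the recovered reads called 69 genes higher (0.478%) and 115 lower (0.796%) on CCl4 and held 42 of the 43, and edgeR called 13 and 18 and held 30. Without Lcn2 null replicate 2, limma called 7 higher and 19 lower, and 21 of the 43 remained. Without wild type replicate 2, the most deeply read library, 6 and 10 were called and 14 remained. Wild type replicate 1 did the reverse, with 51 and 46 calls when it was left out. Called whichever single library was left out were 12 genes, namely Lcn2, Gm47283, Cyp2a22, Gm9780, Tmem254a, Tmem254b, Cyp2b10, Sardh, Cyp3a44, Cyp3a41a, Rnu3b4 and Gm28438. Aldh1b1, Upp2, Elapor1, Ccnd1 and Rsad2 were lost only without wild type replicate 2, and Sds only without Lcn2 null replicate 2. The remaining calls were each lost without 2 or more of the 6 libraries. The counts without Lcn2 null replicate 1 were 11 and 15, without Lcn2 null replicate 3 they were 23 and 25, and without wild type replicate 3 they were 11 and 18.

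**Figure D1:**
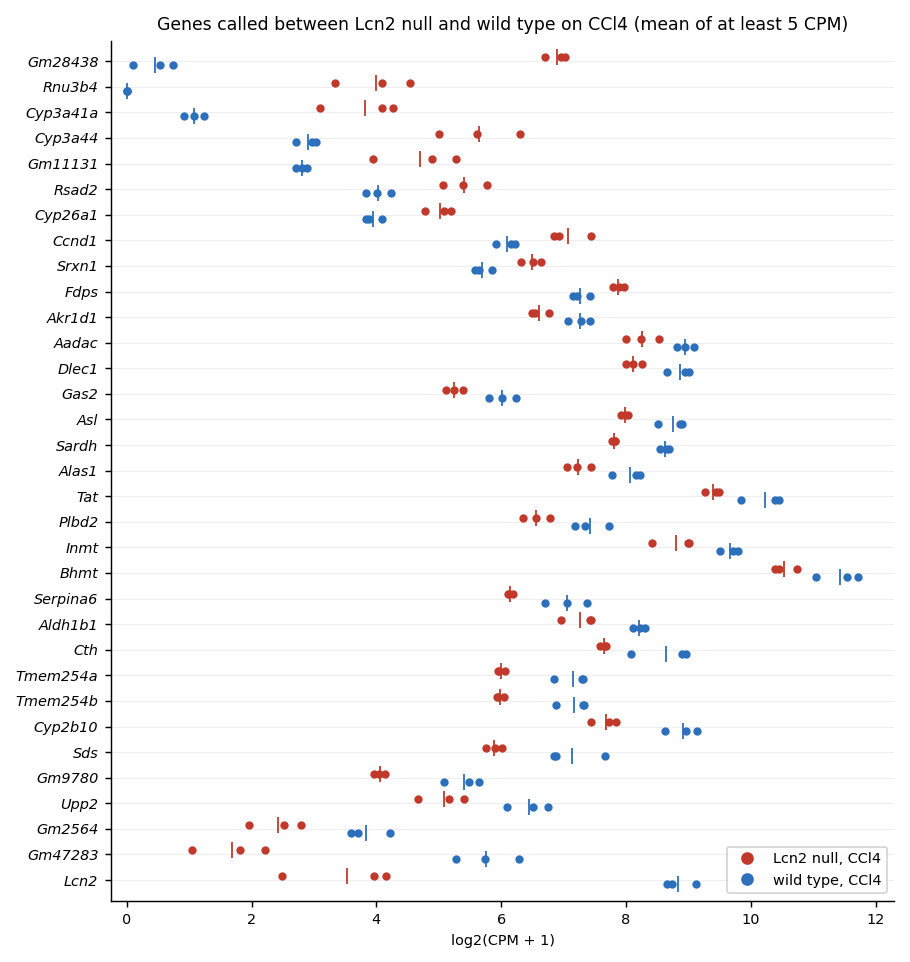
Level of the 33 called genes with a mean of at least 5 CPM, as log2(CPM + 1) on the horizontal axis, in each Lcn2 null library (red) and each wild type library (blue) on CCl4; a point is 1 library and a bar the group mean. Genes are ordered by their fold change, and in each of the 33 rows the red points lie wholly on one side of the blue points, as in all 43 called genes.

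Several of the largest differences were in genes that differed between the genotypes under both injections. Of the 42 called genes that the oil table also held, 10 were called in the same direction there, in libraries that the CCl4 comparison did not use, and 4 in the opposite direction. Beside Lcn2, the 10 were Gm47283, Cyp2a22, Cib3, Gm2564, Gm9780, Tmem254b and Tmem254a, which fell in the null, and Cyp3a44 and Gm28438, which rose. Gm28438, an unprocessed pseudogene (chr1:24612775-24613119), was at 104, 129.6 and 124 CPM in the null and at 0.442, 0.0685 and 0.681 CPM in the wild type on CCl4, where the last values are a few reads each. On oil it was at 109, 90.8 and 71.9 CPM against 0.364, 0.12 and 0 CPM. Every null library carried a high level, and every wild type library almost none (fold change 6.44 ± 0.20 (SE) on CCl4, limma adjusted p = 7.2e-09). Gm47283 (chrY:90784738-90816464) showed the reverse, at 1.055, 3.62 and 2.50 CPM against 76.8, 37.6 and 52.4 CPM on CCl4 and 0.545, 0.574 and 1.61 CPM against 34.9, 26.3 and 43.0 CPM on oil. Tmem254a and Tmem254b, neighbouring genes for transmembrane proteins, and the predicted gene Gm9780, all within a short stretch of chromosome 14, fell by like amounts. Tmem254a was at 61.7, 60.9 and 65.8 CPM in the null and 156, 157 and 114 CPM in the wild type (fold change -1.16 on CCl4, -1.29 on oil). Tmem254b changed by -1.19 and -1.28, and Gm9780 by -1.35 and -1.66. Cyp2a22, a P450 enzyme of the CYP2A family, was at 0.659, 1.21 and 0.375 CPM in the null and 5.85, 7.33 and 11.6 CPM in the wild type, and the predicted gene Gm2564 at 5.93, 4.73 and 2.88 CPM against 17.7, 11.03 and 12.03 CPM (fold changes -2.39 and -1.42 on CCl4, -3.08 and -1.19 on oil). No null library reached the lowest wild type library in either. The levels of Tmem254a and Tmem254b agreed within a few CPM in every library. Reads of near-identical copies can be split between them by the counting, and the 3 cannot be read as separate genes. The same holds for Gm28438, Gm2564, Cyp2a22 and the Cyp3a genes, which have close copies.

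**Figure D2:**
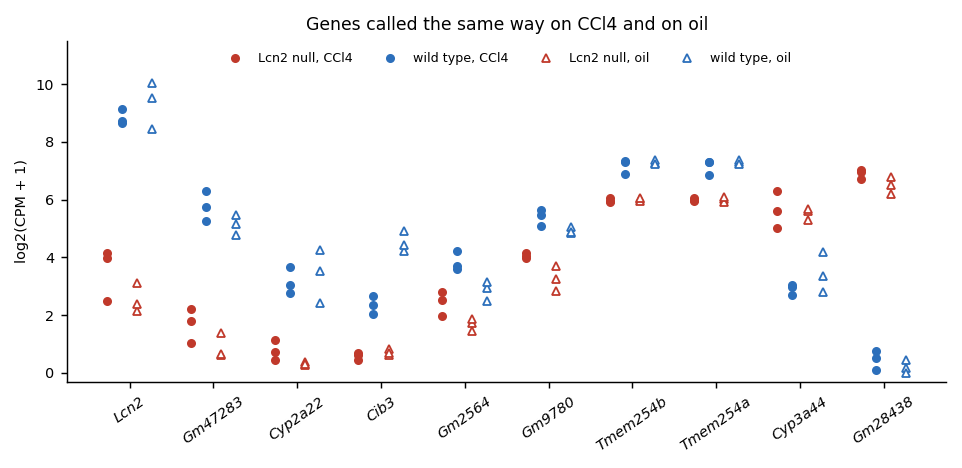
Level of the 10 genes called in the same direction on CCl4 and on oil, as log2(CPM + 1), with 3 libraries per group; filled circles are CCl4, open triangles oil, red Lcn2 null and blue wild type. In each gene the red and blue points are apart under both injections, from Lcn2 (fold change -5.30 on CCl4) to Gm28438 (6.44).

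Cib3, a calcium and integrin binding protein, fell under both injections but not equally. It was at 0.527, 0.604 and 0.375 CPM in the null and 5.30, 4.04 and 3.06 CPM in the wild type on CCl4, and at 0.545, 0.789 and 0.62 CPM and 17.6, 20.6 and 29.2 CPM on oil. The null level was alike and the wild type level was higher on oil, so that the fold change was -1.75 on CCl4 and -3.80 on oil (limma interaction, adjusted p = 0.0043). Over all genes, 292 of 13757 had a genotype effect that differed between the injections (2.12%), 126 of them lower on CCl4 (0.916%). Among the 43 called genes 19 did, but these had been chosen for their difference on CCl4, which is part of that test.

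Enzymes of periportal hepatocytes were among the genes that fell in the Lcn2 null on CCl4. Of 25 periportal markers, 5 were called lower and 0 higher (0.194% and 0.104% of all genes). At an unadjusted p under 0.05, 16 stood lower and 0 higher (3.79% and 4.87% of all genes). Their median fold change was -0.40 against 0.04 over all genes. The 5 were Sds, Upp2, Aldh1b1, Tat and Asl. Sds, serine dehydratase, which feeds serine into gluconeogenesis, was at 63.3, 52.95 and 58.6 CPM in the null and 114, 203 and 117 CPM in the wild type. Wild type replicate 2 was the highest, and the groups were far apart without it (fold change -1.24 ± 0.19 (SE), limma adjusted p = 0.013). Aldh1b1, a mitochondrial aldehyde dehydrogenase, was at 171, 123 and 172 CPM against 275, 299 and 316 CPM, lower in every null library (fold change -0.94 ± 0.13, adjusted p = 0.0071). Upp2, a uridine phosphorylase of the liver, was at 34.7, 24.4 and 41.5 CPM against 67.2, 106 and 90.5 CPM (fold change -1.37 ± 0.20, adjusted p = 0.011). Lcn2 null replicate 2 was the lowest of the null libraries in these 3 genes. Without it the fold changes were -1.18, -0.79 and -1.17, and Sds no longer passed (adjusted p = 0.067).

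Asl, argininosuccinate lyase of the urea cycle, was at 253, 262 and 241 CPM in the null and 364, 475 and 468 CPM in the wild type (fold change -0.78 ± 0.11, limma adjusted p = 0.011). The null libraries agreed within a narrow range, and the lowest wild type library was still well above them. Asl was lost without Lcn2 null replicate 1 (adjusted p = 0.054) and without wild type replicate 2 (adjusted p = 0.098). Tat, the tyrosine aminotransferase that begins tyrosine breakdown, was at 615, 693 and 718 CPM against 917, 1338 and 1402 CPM (fold change -0.83, adjusted p = 0.037). Tat was short of the threshold without Lcn2 null replicate 2 (adjusted p = 0.12) and in edgeR (adjusted p = 0.063). Of the 25 members, 23 had a fold change below 0, and 17, 21 and 23 lay above every null library in wild type replicates 1, 2 and 3. Such counts by library were not made over all genes. The groups did not overlap in 15 of the 25, all lower in the null, against 5.56% of all genes. Sult5a1 (fold change 0.51) and Cdh1 (0.11) were the 2 with a fold change above 0, neither of which passed. The number of periportal members called was 1 to 9 when single libraries were left out, 1 without wild type replicate 2 and 9 without wild type replicate 1, and the list's median kept to between -0.44 and -0.34.

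On oil the order of the periportal genes was mostly the reverse. Their median fold change there was 0.26, and 19 of 25 had opposite signs under the 2 injections. On oil, limma called 4 of the 25 higher and 3 lower (4.91% of all genes were called there in either direction). For 10 the genotype effect was lower on CCl4 than on oil past the interaction threshold, 0 higher. A median above 0 on oil was not particular to periportal genes. It was 0.35 for pericentral markers, 0.48 for P450 enzymes of drug metabolism and 0.42 for phase II enzymes. It was -0.07 for cholesterol synthesis and -0.19 for complement and coagulation factors. Among the P450 enzymes, too, the interaction was lower on CCl4 for 10, and higher for 1. Asl was at 435, 449 and 377 CPM in the null and 359, 343 and 339.7 CPM in the wild type on oil, the reverse order of that on CCl4 (interaction -1.05, limma adjusted p = 0.0015). Upp2 was called in opposite directions, at 142, 120.2 and 128 CPM against 79.8, 97.5 and 67.0 CPM on oil (fold change 0.68, adjusted p = 0.010, interaction adjusted p = 0.00073). Sds and Tat were among the exceptions, with fold changes of -0.35 and -0.48 on oil (limma adjusted p = 0.20 and 0.15).

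**Figure D3:**
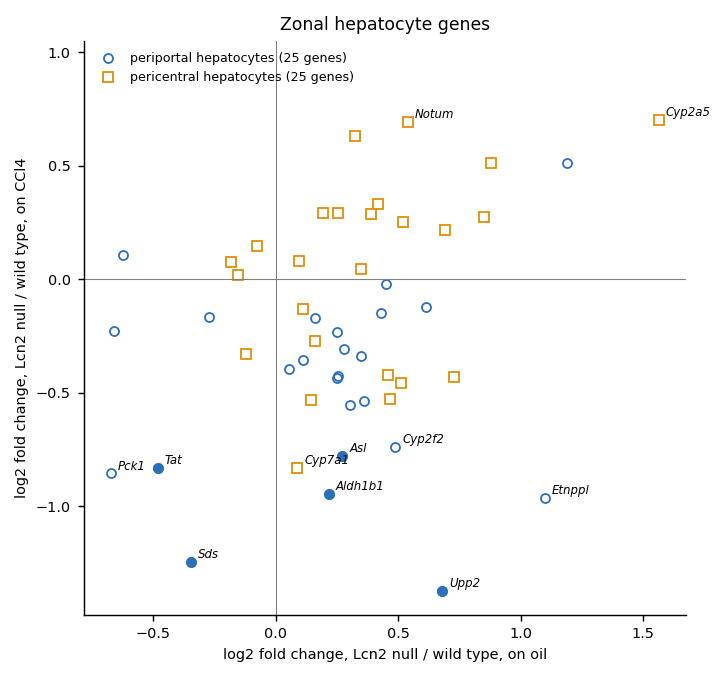
Fold change of 25 periportal (blue circles) and 25 pericentral (orange squares) hepatocyte genes between Lcn2 null and wild type, on oil (horizontal axis, log2) and on CCl4 (vertical axis, log2); filled symbols were called on CCl4. Most blue circles lie below 0 on CCl4, with a median of -0.40, and to the right of 0 on oil, with a median of 0.26. The orange squares lie on both sides of 0 on CCl4, and their median on oil is 0.35.

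Pericentral markers, whose cells bear the brunt of CCl4, did not move together. Of 25, limma, like edgeR, called 0, DESeq2 called 2 higher and 1 lower, and at an unadjusted p under 0.05 stood 8 higher and 5 lower (median 0.08, from -0.02 without Lcn2 null replicate 2 to 0.15 without Lcn2 null replicate 3). Over all genes, 4.87% stood higher and 3.79% lower at that unadjusted p. Without wild type replicate 1, limma called 1 of the list lower. Cyp2a5, a coumarin hydroxylase, was at 149 ± 13.9 CPM (SD, n = 3) in the null and 94.1 ± 26.6 CPM in the wild type, and Notum, a secreted inhibitor of WNT, at 27.8 ± 6.10 CPM and 16.9 ± 4.52 CPM. On the other side were Por, the reductase that passes electrons to the P450 enzymes, at 184 ± 18.6 CPM and 267 ± 16.4 CPM, and Cyp7a1, the rate-limiting enzyme of bile acid synthesis, at 70.6 ± 12.1 CPM and 131 ± 45.9 CPM. None of the 4 passed (limma adjusted p = 0.18, 0.28, 0.052 and 0.20). Cyp2e1, which activates CCl4, was at 358, 248 and 196 CPM in the null and 367, 325 and 378 CPM in the wild type on CCl4 (fold change -0.46, adjusted p = 0.45). On oil its means were 3546 and 2487 CPM, so that both genotypes had far less of it on CCl4.

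The called enzymes extended beyond the periportal markers to the methionine and glycine cycle, through which the liver handles methyl groups. Bhmt, which remethylates homocysteine with betaine, was at 1699.6, 1335 and 1406 CPM in the null and 2099.7, 3359 and 2985 CPM in the wild type (fold change -0.91 ± 0.16 (SE), limma adjusted p = 0.041). Sardh, sarcosine dehydrogenase, was at 219, 226 and 225 CPM against 371, 413 and 396 CPM, and its libraries were close together within each group (fold change -0.81 ± 0.09, adjusted p = 0.0013). Cth, cystathionine gamma-lyase, which makes cysteine, was at 201, 203 and 191 CPM against 268, 477 and 498 CPM (fold change -1.01, adjusted p = 0.048). All null libraries were below all wild type libraries in the 3 genes, as the groups were apart in all 43 called genes. Wild type replicate 1 was the lowest of its group in each of the 3. Without Lcn2 null replicate 2, Sardh remained called (adjusted p = 0.0076), and Bhmt and Cth did not (adjusted p = 0.17 and 0.15). Close neighbours in the pathway, chosen after their values were seen, missed the threshold narrowly. Mat1a, which makes S-adenosylmethionine, was at 797 ± 134 CPM and 1312 ± 164 CPM (SD, n = 3, limma adjusted p = 0.052), and Gnmt, which uses it to methylate glycine, was at 719.8 ± 78.2 CPM and 1195 ± 220.0 CPM (adjusted p = 0.054). A list of 65 genes of amino acid breakdown and the urea cycle, written after these calls were seen and so a description only, held 6 called genes, all lower, and 27 lower against 1 higher at an unadjusted p under 0.05 (median -0.21). At that unadjusted p stood 3.79% of all genes lower and 4.87% higher. Of the list, edgeR called 3 and DESeq2 14 lower. Limma called 2 without Lcn2 null replicate 1, Lcn2 null replicate 2 or wild type replicate 2, 3 without wild type replicate 3, 5 without Lcn2 null replicate 3 and 11 without wild type replicate 1, and the median kept to between -0.24 and -0.19. Its single gene on the other side was Glud1, glutamate dehydrogenase, at 826 ± 26.5 CPM and 702 ± 47.3 CPM. On oil the list's median was 0.27. The fold changes of Bhmt, Sardh and Cth there were 0.18, 0.28 and 0.30, and the interaction passed for all 3 (adjusted p = 0.018, 0.00021 and 0.012).

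Cytochrome P450 enzymes of drug metabolism went both ways. Of 47, 3 were called higher (Cyp3a44, Cyp3a41a and Cyp26a1) and 2 lower (Cyp2b10 and Cyp2a22), against 0.104% and 0.194% of all genes. At an unadjusted p under 0.05 stood 9 higher and 16 lower (4.87% and 3.79% of all genes), and the list's median was 0.02. Cyp2b10, the classical target of the drug sensor CAR, was at 212, 229 and 172 CPM in the null and 391.6, 563 and 498 CPM in the wild type (fold change -1.24 ± 0.14, limma adjusted p = 0.0017). The wild type had more than the null in every library on CCl4, whereas on oil the null had the higher mean and the groups overlapped, at 195, 191 and 149 CPM against 161, 128 and 98.8 CPM (interaction -1.71, adjusted p = 0.0013). Without Lcn2 null replicate 2 the fold change was -1.32 (adjusted p = 0.0050). Alas1, the first enzyme of heme synthesis, which supplies the heme of P450 enzymes, was also lower, at 147, 172 and 132 CPM against 218, 299 and 286 CPM (fold change -0.82, adjusted p = 0.023, 0.027 without Lcn2 null replicate 2). Alas1 was lost without Lcn2 null replicate 1 (adjusted p = 0.095), wild type replicate 2 (0.16) or wild type replicate 3 (0.10).

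Cyp3a44, a mouse enzyme known for a higher level in female liver, was at 31.3, 78.0 and 47.9 CPM in the null and 7.18, 5.55 and 6.81 CPM in the wild type (fold change 2.74 ± 0.26, limma adjusted p = 0.00056). Lcn2 null replicate 2, the library without Xist, was the highest of the null, and without it the fold change was 2.41 (adjusted p = 0.00077). On oil the null level was similar, at 38.6, 48.1 and 49.7 CPM against 17.1, 9.12 and 6.01 CPM. Cyp3a41a, its neighbour with a like female bias, was at 16.1, 7.55 and 18.3 CPM against 1.10, 0.891 and 1.36 CPM, with Lcn2 null replicate 2 here the lowest of the null (adjusted p = 0.0015, and 0.00038 without that library). On oil both genotypes had much more Cyp3a41a, 229.8, 543 and 394 CPM against 300.3, 149 and 256 CPM. The fold changes of the pair were 2.74 and 2.74, and Cyp3a41a alone had an interaction past the threshold (adjusted p = 0.022, 0.50 for Cyp3a44). Cyp26a1, which clears retinoic acid, was at 26.4, 35.5 and 33.0 CPM against 13.8, 13.2 and 16.1 CPM (fold change 1.08 ± 0.16, adjusted p = 0.013). On oil Cyp26a1 ran from 4.33 to 59.0 CPM within the wild type, and without Lcn2 null replicate 2 its adjusted p on CCl4 was 0.072 (0.098 without wild type replicate 2).

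Bile acid synthesis had 1 called gene. Akr1d1, the 5-beta-reductase of the pathway, was at 108, 92.1 and 89.4 CPM in the null and 133, 170.4 and 155 CPM in the wild type (fold change -0.65 ± 0.12, limma adjusted p = 0.044, 0.16 without Lcn2 null replicate 2). Cyp8b1, which sets the share of cholic acid, was at 22.2, 23.4 and 15 CPM against 44.5, 75.8 and 29.7 CPM but did not pass (adjusted p = 0.12), the wild type values being far apart. Nr0b2, the bile-acid-induced repressor SHP, had the opposite order, at 31.2 ± 5.84 CPM and 18.8 ± 3.46 CPM (adjusted p = 0.18). Of the list's 26 genes, 3 stood higher and 6 lower below an unadjusted p of 0.05, against 4.87% and 3.79% of all genes (list median -0.04). Akr1d1 stayed called only without wild type replicate 1, when 2 genes of the list were called lower. Limma also called 1 gene of the list lower without wild type replicate 3. It called 0 without wild type replicate 2 or any 1 of the Lcn2 null replicates.

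Other parts of hepatocyte metabolism held no call by limma or edgeR. The groups were apart in some of the genes named, and overlapped in others, such as Pck1, Angptl8 and Egr1. Over all genes the groups did not overlap in 8.66% that were higher and 5.56% that were lower. At an unadjusted p under 0.05 stood 4.87% of all genes higher and 3.79% lower. Of 34 genes of glucose and glycogen metabolism 5 stood higher and 4 lower below an unadjusted p of 0.05 (median 0.08). Fbp1, fructose bisphosphatase of gluconeogenesis, was at 778, 829.9 and 735 CPM in the null and 924, 1180.0 and 996 CPM in the wild type, and Pck1, the key enzyme of that pathway, at 112, 227 and 202 CPM against 146, 354 and 589.8 CPM (limma adjusted p = 0.21 and 0.57). Both are also enriched in periportal cells. Of 34 PPAR alpha targets and genes of fatty acid oxidation, 1 stood higher and 6 lower below an unadjusted p of 0.05 (median -0.08). Fabp1, which carries fatty acids in hepatocytes, was at 4977 ± 1099 CPM in the null and 3582 ± 117 CPM in the wild type (SD, n = 3, limma adjusted p = 0.35). Of 25 apolipoproteins and genes of lipoprotein metabolism, 2 stood higher and 2 lower below an unadjusted p of 0.05 (median 0.01). In that list Lpl, the lipase of plasma lipoproteins, was at 353, 382 and 231 CPM against 432, 448 and 525 CPM. Angptl8, which regulates that lipase, was at 125, 126 and 108 CPM against 123, 41.1 and 30.5 CPM (limma adjusted p = 0.24 for Lpl and 0.33 for Angptl8). Of 32 major urinary proteins and genes of the growth hormone axis 5 stood higher and 1 lower below an unadjusted p of 0.05 (median 0.14). Mup3, the most abundant of the named ones, was at 1343, 1462 and 1725 CPM against 1007, 1232 and 709 CPM (adjusted p = 0.20), and the near-identical Mup genes cannot be read apart. Of 56 detoxification enzymes of phase II, 5 stood higher and 3 lower below an unadjusted p of 0.05 (median 0.04). Of 24 immediate early genes, which answer growth signals within minutes, 5 stood higher and 1 lower below an unadjusted p of 0.05 (median 0.21). Fos was at 5.80, 6.24 and 3.63 CPM against 2.43, 2.40 and 1.48 CPM and Egr1 at 128, 68.2 and 46.1 CPM against 81.6, 19.5 and 24.5 CPM (adjusted p = 0.21 and 0.50). DESeq2 called 1 gene each of the urinary protein and immediate early lists higher, 1 of the lipoprotein list lower, and 0 of the glucose, fatty acid oxidation and phase II lists. Leaving out wild type replicate 1, limma called 1 gene of the glucose list and 1 of the fatty acid oxidation list lower. It then called 1 of the phase II list and 1 of the lipoprotein list higher. The median of the immediate early genes was 0.10 without Lcn2 null replicate 2 and 0.33 without wild type replicate 1.

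Among the genes that rose in the Lcn2 null was Ccnd1, cyclin D1, which carries cells out of rest into the cell cycle. It was at 120.3, 173 and 114 CPM in the null and 70.4, 59.3 and 73.8 CPM in the wild type on CCl4 (fold change 0.97 ± 0.15 (SE), limma adjusted p = 0.017). The null values were all higher, replicate 2 most of all, and without that library the fold change was 0.79 (adjusted p = 0.039). The call was lost without wild type replicate 2 (fold change 0.88, adjusted p = 0.14). On oil the level was 26.4, 24.0 and 40.2 CPM against 38.4, 30.4 and 19.0 CPM, with no order between the genotypes, though the difference of the 2 effects was not past its threshold (adjusted p = 0.16). Ccne1, cyclin E1, which drives entry into S phase, was at 10.7, 14.4 and 14.1 CPM against 7.84, 4.52 and 4.99 CPM and missed the threshold (adjusted p = 0.089). Cdkn1a, the cyclin-dependent kinase inhibitor p21, was at 48.8 ± 2.61 CPM and 33.0 ± 4.25 CPM (SD, n = 3, limma adjusted p = 0.12). The partner kinase Cdk2 was at 15.02 ± 3.48 CPM and 10.4 ± 2.06 CPM, Ccna2 at 78.6 ± 6.86 CPM and 72.1 ± 9.10 CPM and the brake Rb1 at 7.94 ± 2.01 CPM and 8.83 ± 3.54 CPM. Of 33 such genes, Ccnd1 alone was called, and 7 stood higher and 1 lower below an unadjusted p of 0.05, against 4.87% and 3.79% of all genes (list median 0.24). The list without wild type replicate 2 had 0 called, 4 higher and 0 lower (median 0.14), and without wild type replicate 1 it had 3 called.

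Most genes of DNA replication had a higher mean in the null, each short of the threshold. Of 54, limma and edgeR called 0, DESeq2 called 10 higher, 27 stood higher and 0 lower below an unadjusted p of 0.05 (4.87% of all genes stood higher), 52 had a fold change above 0, and the median was 0.53. Mcm2, a subunit of the replicative helicase, was at 24.4, 29.9 and 30.1 CPM in the null and 19.8, 12.8 and 13.1 CPM in the wild type (fold change 0.87 ± 0.18, limma adjusted p = 0.083). Cdt1, which loads that helicase on the DNA, was at 12.3, 14.9 and 18.8 CPM against 8.61, 7.95 and 6.47 CPM (adjusted p = 0.11). Uhrf1, which brings the maintenance DNA methyltransferase to new DNA, was at 17.4, 21.3 and 27.4 CPM against 13.5, 9.73 and 6.92 CPM (adjusted p = 0.093). The groups did not overlap in any of the 3, and wild type replicate 1 was the highest of its group in each. Wdhd1, which ties the helicase to the polymerase, was at 6.59, 5.54 and 8.13 CPM against 2.76, 2.81 and 2.72 CPM (adjusted p = 0.10), and Pcna, the sliding clamp of the polymerases, was at 119, 127 and 143 CPM against 114, 76.3 and 74.6 CPM (adjusted p = 0.20). Wild type replicates 2 and 3 lay below every null library in 48 and 49 of the 54 genes, while replicate 1 did so in 18 and lay within the range of the null in 29. Such counts by library were not made over all genes. The groups did not overlap in 17 of the 54, all higher in the null, against 8.66% of all genes. Without wild type replicate 1, limma called 10 members higher and the median was 0.71, and without wild type replicate 3 it called 0 and the median was 0.36. Without Lcn2 null replicate 2 the median was 0.50, with 24 members higher at an unadjusted p under 0.05. On oil, where replication is low, the median was -0.12 over 50 genes.

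**Figure D4:**
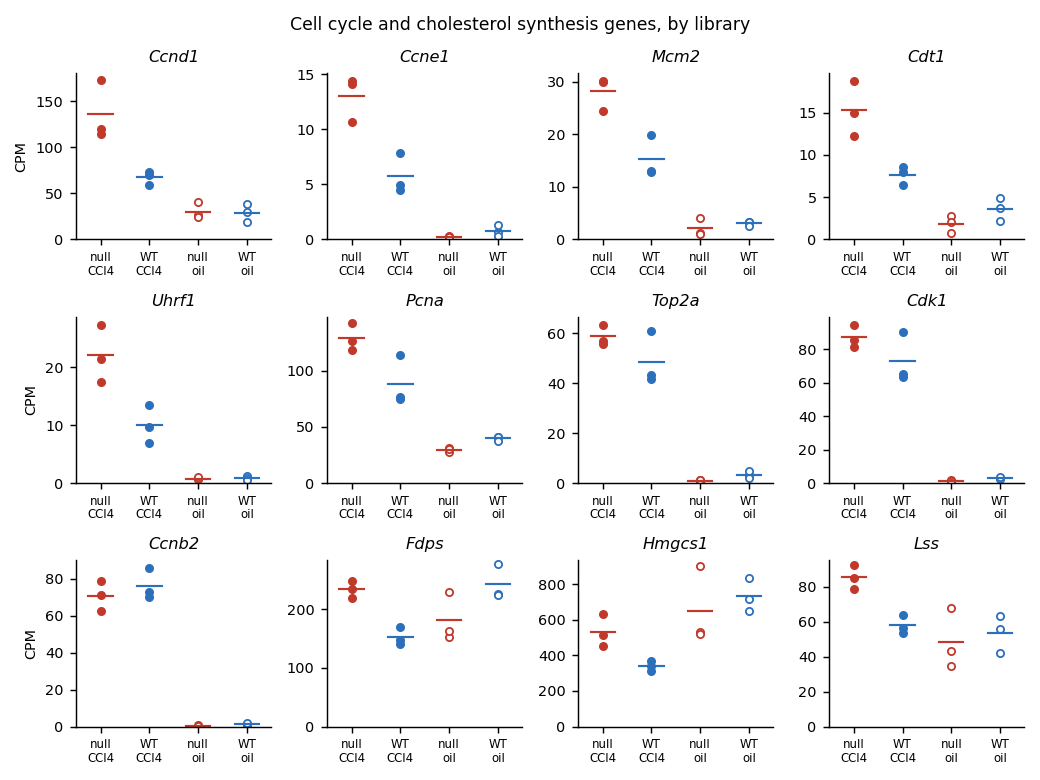
CPM of 12 genes in each library (points) with group means (bars), 3 libraries per group: Lcn2 null (red) and wild type (blue), on CCl4 (filled) and on oil (open). The upper 6 panels are cyclins and replication genes, highest in the null on CCl4 (Mcm2 mean 28.1 against 15.2 CPM); Top2a, Cdk1 and Ccnb2, genes of mitosis, are high in both genotypes on CCl4 and overlap, and Fdps, Hmgcs1 and Lss make cholesterol.

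Most genes of mitosis overlapped between the genotypes. Of 52 mitotic genes limma, edgeR and DESeq2 called 0, 1 stood higher and 1 lower below an unadjusted p of 0.05, and the median was 0.13. Both were named by the rule. Mybl2, a transcription factor of the cell cycle, was at 3.43, 2.72 and 1.5 CPM in the null and 1.10, 0.48 and 0.454 CPM in the wild type. Spc25, a kinetochore protein, was at 37.2, 38.2 and 46.3 CPM against 61.5, 45.4 and 48.4 CPM, the other way round. Cdk1, the mitotic kinase, was at 94.6, 85.4 and 81.1 CPM against 90.3, 64.9 and 63.4 CPM, Ccnb2, its cyclin B2, at 71.1, 62.8 and 79.0 CPM against 85.8, 70.3 and 72.8 CPM, and Mki67, the proliferation antigen Ki-67, at 88.5, 78.2 and 105 CPM against 101, 61.0 and 69.8 CPM. In Cdk1, Ccnb2 and Mki67 the groups overlapped, and wild type replicate 1 was the first or second highest of the 6 libraries. That library lay above every null library in 26 of the 52 mitotic genes. Wild type replicates 2 and 3 lay below every null library in 36 and 41 of them, and 43 of the 52 had a fold change above 0. Such counts by library were not made over all genes. The groups did not overlap in 1 of the 52, higher in the null, against 8.66% of all genes. Without wild type replicate 1, 18 of the 52 stood higher and 0 lower below an unadjusted p of 0.05 (median 0.31), with 0 called by limma. Wild type replicate 1 also had the highest sums of collagens and bile duct markers, and the part of these cells in the cell cycle values was not tested. Of 30 genes of DNA repair limma called 0, edgeR 0 and DESeq2 2 higher, and 4 stood higher and 0 lower below an unadjusted p of 0.05 (median 0.18, 0.07 without wild type replicate 3 and 0.29, with 1 call, without wild type replicate 1). Ung, which removes uracil from DNA, was at 16.1, 16.8 and 16.6 CPM against 10.4, 5.96 and 6.70 CPM (limma adjusted p = 0.067).

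Replication genes are classical targets of the E2F factors. In RefSeq windows from 250 bases before to 50 bases after the start (GRCm38.p6, the coordinates of mm10), 43.2% of the 44 replication genes with a window held an E2F motif (TTTCCCGC, TTTCGCGC, TTTGCCGC or TTTGGCGC on either strand), 11.6% of the 43 mitotic genes, 4.49% of the 10770 genes of the table with a window, 2.6% of all 27025 genes with a window and 2.26% of all windows. The CHR motif of mitotic promoters (TTTGAA or TTCGAA) had the reverse distribution, with 18.2% of the replication genes, 76.7% of the mitotic genes, 17.1% of the genes of the table, 21.7% of all genes and 19.2% of all windows. CCAAT, the box bound by NF-Y, was in 61.4% of the replication genes, 69.8% of the mitotic genes, 42.8% of the genes of the table, 41.1% of all genes and 37.4% of all windows. A match says only that the letters are there. The 250 bases before the start are shown for the 3 replication genes with the smallest p that held an E2F motif in them, Uhrf1 (chr17:56304063-56304312, plus strand), Cdc6 (chr11:98907901-98908150, plus strand) and Rfc3 (chr5:151651209-151651458, minus strand), each 5′ to 3′ with the motif in capitals.
Uhrf1: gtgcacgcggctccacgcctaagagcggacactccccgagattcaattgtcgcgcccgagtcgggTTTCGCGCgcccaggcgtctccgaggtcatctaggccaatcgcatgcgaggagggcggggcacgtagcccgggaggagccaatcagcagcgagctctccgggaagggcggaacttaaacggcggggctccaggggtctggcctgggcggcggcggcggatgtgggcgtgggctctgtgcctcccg
Cdc6: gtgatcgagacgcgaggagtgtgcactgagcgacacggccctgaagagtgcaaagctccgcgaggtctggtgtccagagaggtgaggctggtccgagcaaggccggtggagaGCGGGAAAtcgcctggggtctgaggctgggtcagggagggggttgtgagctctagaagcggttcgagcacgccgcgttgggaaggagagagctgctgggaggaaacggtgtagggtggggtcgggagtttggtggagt
Rfc3: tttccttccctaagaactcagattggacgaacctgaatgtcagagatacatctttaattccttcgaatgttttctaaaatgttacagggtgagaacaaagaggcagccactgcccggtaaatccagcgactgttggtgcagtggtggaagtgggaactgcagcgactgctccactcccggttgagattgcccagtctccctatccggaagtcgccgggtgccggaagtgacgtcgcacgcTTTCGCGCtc
The motif began 185 bases before the start in Uhrf1, 138 in Cdc6, where it lies on the other strand, and 10 in Rfc3. Cdc6, which recruits the helicase together with Cdt1, had a mean of 7.78 CPM in the null and 3.13 CPM in the wild type (fold change 1.13, limma adjusted p = 0.17). Rfc3, a subunit of the clamp loader, had 21 and 12.6 CPM (fold change 0.71, adjusted p = 0.20). Neither passed.

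**Figure D5:**
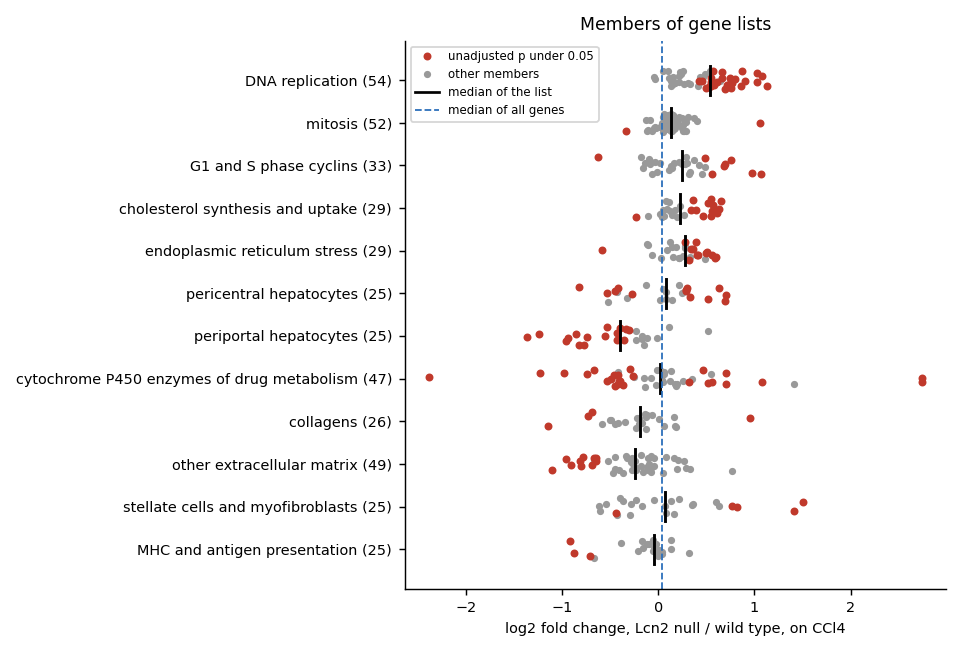
Fold change on CCl4 (Lcn2 null over wild type, log2, horizontal axis) of every measured member of 12 gene lists; 1 point is a gene, red at an unadjusted p under 0.05, with the median of the list (black bar), the median of all genes (dashed, 0.04) and the number of members in brackets. Replication genes lie to the right (median 0.53), mitotic genes near 0 (0.13) and periportal genes to the left (-0.40).

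Cholesterol synthesis held 1 called gene. Fdps, farnesyl diphosphate synthase, was called, at 219, 235 and 249 CPM in the null and 148, 170.1 and 141 CPM in the wild type (fold change 0.61 ± 0.10 (SE), limma adjusted p = 0.025). All null libraries were above all wild type libraries, yet the adjusted p was 0.098 without Lcn2 null replicate 2 and 0.11 in edgeR. It was 0.064 and 0.065 without Lcn2 null replicates 1 and 3 and 0.12 without wild type replicate 3. Hmgcs1, which makes HMG-CoA, was at 451, 635 and 516 CPM against 370.4, 343 and 313 CPM (adjusted p = 0.061). Lss, which closes the sterol rings, was at 78.9, 92.2 and 84.8 CPM against 56.3, 64.0 and 53.7 CPM (adjusted p = 0.075), and Cyp51, which demethylates lanosterol, at 179, 239 and 223 CPM against 156, 143 and 131 CPM (adjusted p = 0.082). Of the list's 29 genes, 13 stood higher and 1 lower below an unadjusted p of 0.05, against 4.87% and 3.79% of all genes (list median 0.23, 0.21 without Lcn2 null replicate 2). The exception was Ebp, a sterol isomerase, at 469 ± 45.5 CPM and 551 ± 39.4 CPM (SD, n = 3). On oil the list's median was -0.07, and Fdps was at 153, 162 and 229 CPM in the null against 227, 277 and 224 CPM in the wild type, so that the effect on it differed between the injections (interaction 1.04, adjusted p = 0.0078). In fatty acid and triglyceride synthesis the counts were lower, with limma, edgeR and DESeq2 calling 0 of 26, 0 higher and 1 lower below an unadjusted p of 0.05 (median -0.04, from -0.17 without Lcn2 null replicate 3 to 0.07 without Lcn2 null replicate 2). Sterol genes are known targets of SREBP2. Its response element, searched as TCACNCCAC on either strand, was in 1 of the 21 cholesterol genes with a window (4.76%), 1.36% of the genes of the table, 1.44% of all genes and 1.24% of all windows. That gene was Hmgcs1, whose 250 bases before the start (chr13:119690101-119690350, plus strand) hold it 137 bases before the start, in capitals here.
Hmgcs1: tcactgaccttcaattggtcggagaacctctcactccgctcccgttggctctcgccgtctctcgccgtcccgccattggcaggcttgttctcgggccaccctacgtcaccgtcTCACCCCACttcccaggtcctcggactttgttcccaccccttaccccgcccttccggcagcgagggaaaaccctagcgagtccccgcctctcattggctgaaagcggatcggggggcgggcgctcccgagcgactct
CCAAT was in 81.0% of these 21 genes, against the 42.8% of the genes of the table.

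Among stress genes, Srxn1, sulfiredoxin, an NRF2 target that repairs oxidized peroxiredoxins, rose and was at 90.1, 99.1 and 78.8 CPM in the null and 56.5, 46.6 and 48.9 CPM in the wild type (fold change 0.80 ± 0.12, limma adjusted p = 0.013, 0.072 without Lcn2 null replicate 2). Srxn1 was also lost without Lcn2 null replicate 1 (adjusted p = 0.071), wild type replicate 2 (0.12) or wild type replicate 3 (0.062). Of the 28 genes of its list 6 stood higher and 3 lower below an unadjusted p of 0.05 (median 0.03). Gclc, which makes glutathione, was at 232 ± 4.52 CPM and 182 ± 14.7 CPM, and the metal-binding Mt1 had the opposite order, at 534, 465 and 234 CPM against 832, 620.5 and 693 CPM (adjusted p = 0.20 and 0.21). Of 29 genes of endoplasmic reticulum stress, many of them chaperones, limma, edgeR and DESeq2 called 0. Below an unadjusted p of 0.05 stood 12 higher and 1 lower, against 4.87% and 3.79% of all genes (list median 0.28). These counts without Lcn2 null replicate 2 were 9 and 0 (median 0.24), and without wild type replicate 1 they were 18 and 0 (median 0.43). Dnajb11, a cofactor of the chaperone BiP, was at 114, 144 and 125 CPM against 99.6, 81.8 and 87.3 CPM (adjusted p = 0.12), and Pdia6, a disulfide isomerase, at 363, 436 and 409 CPM against 342, 287 and 282 CPM (adjusted p = 0.20). Lcn2 null replicate 2 was the highest library in both. Gdf15, a stress hormone of the TGF beta family, was at 22.02, 24.6 and 20.9 CPM against 14.2, 6.85 and 9.08 CPM, without overlap but short of the threshold (adjusted p = 0.061).

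Rsad2, the antiviral enzyme viperin, was the 1 gene called by both limma and edgeR among 37 interferon-stimulated genes. It was at 41.0, 53.9 and 32.4 CPM in the null and 17.8, 13.2 and 15.1 CPM in the wild type (fold change 1.39 ± 0.18, limma adjusted p = 0.0068, 0.029 without Lcn2 null replicate 2). The call was lost without wild type replicate 2 (fold change 1.29, adjusted p = 0.061). On oil it was at 6.98, 9.33 and 8.43 CPM against 21.5, 9.24 and 8.78 CPM, and the 2 effects differed (interaction 1.90, adjusted p = 0.012). The list had 4 higher and 1 lower below an unadjusted p of 0.05 (median 0.11, and -0.09 without Lcn2 null replicate 2). Oasl1, which lowers type I interferon production, was at 29.0, 31.7 and 35 CPM against 19.5, 20.8 and 13.6 CPM (adjusted p = 0.083), and the small interferon-induced Ifi27l2a was at 61.6 ± 23.2 CPM and 87.5 ± 15.7 CPM (SD, n = 3, limma adjusted p = 0.50).

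Genes of the scar did not pass in either direction by limma. Of 26 collagens limma and edgeR called 0 and DESeq2 called 2 lower, and at an unadjusted p under 0.05 stood 1 higher and 3 lower (median -0.19, from -0.36 without Lcn2 null replicate 1 to -0.05 without Lcn2 null replicate 3). Col1a1, the main scar collagen, was at 433, 380.1 and 179.5 CPM in the null and 668, 345 and 328 CPM in the wild type. The values overlapped, with wild type replicate 1 far above and Lcn2 null replicate 3 far below the rest (limma adjusted p = 0.74). Col1a2 followed it library by library, at 297, 272 and 154 CPM against 482, 274 and 269.7 CPM, and Col3a1 was at 252, 251 and 128 CPM against 389, 283 and 311 CPM (adjusted p = 0.61 and 0.32). Of 49 other matrix genes, limma and edgeR called 0 and DESeq2 called 5 lower (0.796% of all genes). At an unadjusted p under 0.05, 10 stood lower and 0 higher, against 3.79% and 4.87% of all genes (list median -0.25). Spp1, osteopontin, was at 182, 215 and 167 CPM against 673, 357 and 276 CPM, Mgp, matrix Gla protein, at 11.9, 12.4 and 8.13 CPM against 24.0, 16.3 and 25.7 CPM, and Smoc2, a matricellular protein, at 25.7, 15.3 and 26.9 CPM against 37.4, 42.1 and 38.1 CPM. In all 3 the genotype groups were apart, but adjusted p were 0.096, 0.10 and 0.13. The median was -0.12 without Lcn2 null replicate 3. Without wild type replicate 1 or 3, limma called 1 of these matrix genes lower, and without replicate 1 there stood 3 higher and 7 lower below an unadjusted p of 0.05.

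Acta2, the smooth muscle actin that marks myofibroblasts, had higher means in the null. It was at 109, 78.9 and 59.6 CPM in the null and 60.2, 18.9 and 18.0 CPM in the wild type (fold change 1.51 ± 0.36, limma adjusted p = 0.15). The lowest null library lay just under wild type replicate 1 and over 3 times above the other wild type libraries. Cnn1 and Tagln, which bind actin in contractile cells, also had higher means in the null, at 2.64, 1.61 and 2.50 CPM against 0.552, 0.137 and 0 CPM and 124, 94.3 and 78.3 CPM against 103, 47.7 and 37.2 CPM (adjusted p = 0.070 and 0.45). The groups were apart in Cnn1 and overlapped in Tagln. Of the 25 stellate cell and myofibroblast markers 4 stood higher and 1 lower below an unadjusted p of 0.05, limma and edgeR called 0 and DESeq2 called 1 higher (median 0.07, from -0.14 without Lcn2 null replicate 1 to 0.24 without Lcn2 null replicate 3). Without wild type replicate 1, limma called 3 of them higher, namely Acta2, Cnn1 and Tagln. Their summed level was 443 to 694 CPM in the null and 387 to 607 CPM in the wild type, and Cnn1 alone was at 0 in a library. Tgfb1, the main fibrogenic cytokine, was at 4.37 ± 1.26 CPM and 6.19 ± 1.84 CPM (SD, n = 3), Tgfbr1 at 30.9 ± 7.53 CPM and 34.9 ± 3.76 CPM, and Tgfbr2 at 40.8 ± 7.12 CPM and 50 ± 6.46 CPM. The protease Mmp2 was at 3.78 ± 2.42 CPM and 7.11 ± 0.634 CPM, Mmp9 at 2.44 ± 0.323 CPM and 2.32 ± 0.381 CPM, and the inhibitor Timp1 at 17.2 ± 9.46 CPM and 16.7 ± 11.3 CPM. The smallest adjusted p of these 6 was 0.42, for Mmp2.

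Bile duct cells multiply in scarred liver, and their markers did not pass by limma. Epcam, Cd24a and Tspan8, surface proteins of duct cells, were at 1.85, 1.81 and 1.38, at 2.37, 5.54 and 2.38 and at 3.30, 3.32 and 4.88 CPM in the null. In the wild type they were at 9.38, 3.15 and 5.22, at 12.7, 6.85 and 9.19 and at 15.3, 7.33 and 6.81 CPM, higher in every library, with replicate 1 the highest of them. Limma adjusted p were 0.18, 0.13 and 0.20, and DESeq2 adjusted p 0.0022, 0.0012 and 0.0024. Krt8 and Krt18, keratins that hepatocytes also express, had the opposite order, with Krt18 at 447, 462 and 475 CPM against 388, 298 and 241 CPM (adjusted p = 0.13). Of the list's 19 markers limma and edgeR called 0, and DESeq2 called 4 lower. At an unadjusted p under 0.05 stood 3 higher and 4 lower (median -0.39). Limma called 1 higher and 1 lower without wild type replicate 1 and 1 lower without wild type replicate 3. Their summed level was 1281 to 1427 CPM in the null and 1037 to 1702 CPM in the wild type, and Cldn4 was at 0 in a library. Spp1, described with the matrix, is also made by duct cells and is 1 of them, and the part of duct cells in its difference was not tested.

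Few leukocyte markers were called on CCl4. Among 16 neutrophil markers the single call was Lcn2 itself, and Mpo, the peroxidase of their granules, was at 1.45, 1.81 and 0.125 CPM in the null and 0.883, 0.754 and 0.568 CPM in the wild type (limma adjusted p = 0.92). Limma and edgeR called 0 of the markers of monocytes and inflammatory macrophages (24 genes, median -0.26), of Kupffer cells (19, -0.09), of B and plasma cells (23, -0.02) and of T and NK cells (19, -0.13). DESeq2 called 1 Kupffer cell gene lower and 0 in the other 3 lists. At an unadjusted p under 0.05 stood 1, 1, 2 and 0 of their genes lower, and 0, 0, 1 and 0 higher. These medians turned on single libraries. The monocyte median without Lcn2 null replicate 3 was 0.01, with 4 genes higher and 0 lower, and without Lcn2 null replicate 2 it was -0.43, with 5 lower. Medians of the other 3 lists ran from -0.24 to 0.10, -0.14 to 0.10 and -0.20 to 0.03 as single libraries were left out. The same 4 lists had medians of -1.12, -0.93, -0.63 and -0.11 on oil. Ptprc, the pan-leukocyte antigen CD45, was at 20.6, 19.6 and 10 CPM against 21.8, 20.9 and 32.0 CPM, Itgam, the myeloid integrin CD11b, at 7.91, 8.76 and 4.88 CPM against 9.94, 6.65 and 9.76 CPM, and Adgre1, the macrophage marker F4/80, at 52.9, 48.0 and 36.0 CPM against 42.6, 41.4 and 69.0 CPM. The groups overlapped in Itgam and Adgre1, and Lcn2 null replicate 3 was the lowest library in all 3 (adjusted p = 0.53, 0.83 and 0.90). Of 25 antigen presentation genes limma, edgeR and DESeq2 called 0, and 3 stood lower and 0 higher at an unadjusted p under 0.05. H2-Aa, of MHC class II, was at 46.8, 43.1 and 23.4 CPM against 56.0, 62.9 and 95.2 CPM, H2-Ab1 at 44.4, 49.4 and 21.5 CPM against 54.8, 58.0 and 97.2 CPM and the invariant chain Cd74 at 39.4, 36.8 and 18.8 CPM against 41.3, 44.4 and 67.8 CPM. They were apart between the genotypes but not called (adjusted p = 0.20, 0.32 and 0.41), and Lcn2 null replicate 3 was again lowest and wild type replicate 3 highest.

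Of 48 chemokines, cytokines and receptors limma and edgeR called 0 and DESeq2 called 1 higher and 1 lower, with 1 higher and 4 lower below an unadjusted p of 0.05 (median -0.16). The sign of the median turned without Lcn2 null replicate 3, to 0.08, with 6 higher and 3 lower. Ccl24, an attractant of eosinophils, was at 8.04, 4.53 and 9.38 CPM in the null and 3.64, 2.40 and 2.16 CPM in the wild type, and Il7, a growth factor of lymphocytes, at 1.71, 0.805 and 0.5 CPM against 4.31, 3.43 and 2.72 CPM (limma adjusted p = 0.18 and 0.16). The neutrophil attractant Cxcl1 was at 19.5 ± 7.08 CPM and 15.7 ± 4.60 CPM (SD, n = 3), the monocyte attractant Ccl2 at 18.9 ± 10.6 CPM and 18.8 ± 3.97 CPM, its receptor Ccr2 at 14.1 ± 5.11 CPM and 17.4 ± 5.79 CPM and Il1b at 3.17 ± 1.52 CPM and 5.40 ± 2.85 CPM, none of which passed. On oil Cxcl1 was at 10.7, 26.7 and 18.2 CPM against 42.8, 67.9 and 134 CPM, and the 2 effects differed (interaction adjusted p = 0.028). Cxcl2, Cxcl5 and Cxcr2 had means under 1.5 CPM in both genotypes on CCl4. Acute-phase genes were level as a list (24 genes, 0 called by limma and edgeR and 1 lower by DESeq2, 0 higher and 3 lower below an unadjusted p of 0.05, median 0.00), against a median of -0.995 on oil. Saa3, the serum amyloid A of macrophages, was at 196, 86.0 and 138 CPM in the null and 52.1, 141 and 96.7 CPM in the wild type on CCl4 and at 11.01, 9.83 and 11.2 CPM and 247, 334 and 235 CPM on oil (interaction 5.09, adjusted p = 4.4e-06).

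Iron genes are of interest because lipocalin 2 carries iron. Beside Lcn2, limma, edgeR and DESeq2 called 0 of the 24 genes measured, and 3 stood higher and 2 lower below an unadjusted p of 0.05, Lcn2 included. Limma called 1 of these others higher and 1 lower without wild type replicate 1, and 1 higher without Lcn2 null replicate 3. Hamp, hepcidin, the hormone that lowers iron export, was at 1879.9, 2037 and 1100.3 CPM in the null and 1169, 1036 and 607 CPM in the wild type (fold change 0.84, adjusted p = 0.27). Its near-identical copy Hamp2, for which that role is not established, was at 188, 96.5 and 145 CPM against 202, 460.4 and 441 CPM, in the opposite order (-1.31, adjusted p = 0.095), and reads of the 2 may be shared. Id1, a target of the BMP signal that also sets hepcidin, was at 63.8, 65.1 and 56.3 CPM against 66.1, 20.1 and 19.1 CPM, the wild type values spanning the null range (adjusted p = 0.36). Ftl1, the ferritin light chain, was at 3879.8 ± 155 CPM and 3258 ± 135 CPM (SD, n = 3, limma adjusted p = 0.50).

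Around the deleted gene, 236 measured genes lay within 10 Mb of Lcn2 on chromosome 2. Lcn2 and Sardh were called, and at an unadjusted p under 0.05 stood 15 higher and 7 lower, Lcn2 included. Over all 14445 genes, 4.87% stood higher and 3.79% lower at that threshold. Whether the neighbours differed from all genes in these shares was not tested. Sardh (chr2:27188393-27248337) was the called neighbour, but had a fold change of 0.28 on oil. Besides Lcn2, 3 genes had an unadjusted p under 0.05 in the same direction on both injections. Adamtsl2, a microfibril-associated protein, was at 6.73, 7.95 and 2.38 CPM in the null and 17.2, 10.3 and 14.5 CPM in the wild type (fold change -1.26, -1.26 on oil). Kyat1, a kynurenine aminotransferase, had fold changes of 0.27 and 0.78, and Trub2, a mitochondrial RNA-modifying enzyme, of 0.56 and 0.70. None of the 3 passed on CCl4 (limma adjusted p = 0.20, 0.52 and 0.42), and all 3 passed on oil (adjusted p = 0.024, 0.0040 and 0.034).

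The remaining called genes fell into no list. Serpina6, which encodes the corticosteroid-binding globulin of plasma, was at 68.7, 71.7 and 68.0 CPM in the null and 103, 132 and 166 CPM in the wild type on CCl4, and at 296, 334 and 294 CPM and 135, 170.3 and 166 CPM on oil. It fell on CCl4 and rose on oil, past the threshold in both (fold change -0.91 and 0.97, limma interaction adjusted p = 0.00010). Dlec1, named for a gene deleted in human lung and esophageal cancer, did the same, at 275, 255 and 303 CPM against 401, 492 and 512 CPM on CCl4 and 904, 926 and 821 CPM against 372, 329 and 289.9 CPM on oil (-0.75 and 1.42, interaction adjusted p = 3.3e-06). Inmt, an N-methyltransferase of indoles and other amines, was the third, at 508, 341 and 516 CPM against 729, 836 and 887 CPM and 705, 639 and 575 CPM against 417, 351 and 279 CPM (-0.86 and 0.89, interaction adjusted p = 0.00073). With Upp2, these are the 4 called genes that were also called on oil in the opposite direction. All 4 were lost on CCl4 without wild type replicate 2, and all but Upp2 also without Lcn2 null replicate 1 and without wild type replicate 3. Their adjusted p on CCl4 without Lcn2 null replicate 2 were 0.072, 0.067, 0.050 and 0.029.

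Aadac, an esterase of hepatocytes, was at 369, 254 and 300.1 CPM in the null against 452, 541 and 492 CPM (fold change -0.70, limma adjusted p = 0.048). Plbd2, a lysosomal phospholipase-like protein whose gene overlaps the end of Sds on the opposite strand, was at 109, 93.0 and 80.9 CPM against 161, 210.1 and 144 CPM (-0.85, adjusted p = 0.032), and where reads were counted without strand those of the 2 cannot be told apart. Gas2, a protein of the cytoskeleton linked to growth arrest, was at 37.1, 33.6 and 40.8 CPM against 55.1, 74.4 and 63.7 CPM (-0.77, adjusted p = 0.035). H19, an imprinted noncoding RNA of fetal liver, was at 0.791, 2.21 and 0.625 CPM against 8.39, 8.22 and 5.79 CPM (-1.99 ± 0.30, adjusted p = 0.013), low in every null library, and had a fold change of -1.09 on oil (adjusted p = 0.055). Without Lcn2 null replicate 2, which had the highest of the null values, its fold change was -2.30 (adjusted p = 0.0076). H19, like Aadac, Plbd2 and Gas2, was still among the calls lost without 2 or more of the 6 libraries, each left out singly. Elapor1, an endosome and lysosome protein, was at 1.32, 0.201 and 1.25 CPM against 7.95, 9.80 and 6.81 CPM (-2.30 ± 0.30, adjusted p = 0.0053, 0.012 without Lcn2 null replicate 2 and 0.064 without wild type replicate 2), and Eci3, an isomerase of fatty acid oxidation, at 1.055, 0.906 and 1.38 CPM against 3.53, 4.87 and 4.88 CPM (adjusted p = 0.048, 0.19 without Lcn2 null replicate 2).

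The other called genes that rose were low or poorly described. Rnu3b4, a copy of the U3 small nucleolar RNA, was at 9.10, 22.2 and 16.1 CPM in the null and at 0 reads in all 3 wild type libraries on CCl4 (limma adjusted p = 5.4e-05, 0.00038 without Lcn2 null replicate 2), yet at 14.3, 24.6 and 12.3 CPM and 31.8, 9.36 and 26.9 CPM on oil, where the genotypes overlapped. Gm11131, an antisense transcript, was at 28.7, 37.8 and 14.4 CPM against 6.40, 5.55 and 6.02 CPM (1.90, adjusted p = 0.013, 0.055 without Lcn2 null replicate 2). Rasgrf2, an exchange factor of RAS and RAC, was at 2.77, 3.02 and 2.63 CPM against 0.331, 0.48 and 0.227 CPM, Cnbd2, a cyclic-nucleotide-binding protein, at 3.69, 9.16 and 9.88 CPM against 0, 1.17 and 1.48 CPM, and Sprr2a2, a small proline-rich protein of epithelium, at 1.45, 1.71 and 2.13 CPM against 0, 0.0685 and 0 CPM. The predicted genes Gm10524 and Gm42427 were at 3.69, 3.42 and 3.5 CPM against 0.662, 0.274 and 0.341 CPM and at 2.51, 7.85 and 2.75 CPM against 0.221, 0.0685 and 0.227 CPM. These 5 rest on few reads in the wild type libraries, and their adjusted p without Lcn2 null replicate 2 ran from 0.060 to 0.19.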

How the data were processed

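Whole livers of 12 libraries (4 groups of 3) were profiled by a 3′ tag kit (rapid MACE) on a NextSeq 500. The study trimmed reads with Trim Galore, aligned them to mm10 with STAR and tested genes with DESeq2 1.30.0. The submitters' notes name featureCounts as the counter and the methods Salmon, and whether strand was used is not given in the sources used here. The deposited tables give CPM (reads per 1000000 reads in genes) per gene and library, scaled by the authors to the reads in genes. They hold genes that passed the authors' own selection, 1 table per contrast. The deposited columns of fold changes and p-values and the enrichment tables were not used. No value column lacked a sample (0 columns).

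Each CPM value was a whole multiple of 1 read (100% of values within 0.001 of a whole number), which returned reads per gene. Genotypes were compared on log2(CPM + 1) with limma 3.58.1 (variance trend, Benjamini-Hochberg adjustment, R 4.3.3), on CCl4, on oil and, over all 12 libraries, as the interaction (CCl4 effect minus oil effect). Every gene of a table was tested. Alternatives were edgeR 4.0.16 and DESeq2 1.42.0 on the recovered reads, other pseudocounts (0.5 and 5), a filter at 1 CPM, TMM and size factor scaling, no trend, a replicate block, all 12 libraries and each library left out. The scripts recovered known fold changes in simulated reads, with 1 fixed dispersion and changes only in genes of at least 5 CPM. No deviating library was simulated, so that check does not cover low genes or the dependence on single libraries. Tables were handled in Python 3.11.15 with pandas 2.3.3 and numpy 2.4.6. Gene positions came from GENCODE M21, where 52 IDs were not found, and 149 genes had no symbol.

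Named were Lcn2, the called genes with the largest changes at 5 CPM or more (up to 15 each way), up to 4 members of each list and direction by p, genes the study measured by other means, genes within 10 Mb of Lcn2 and genes called on both injections. Called genes under 5 CPM, Gnmt, Mat1a, Xist and Eif2s3x were chosen after their values were seen. The X-linked Kdm6a and Ddx3x were looked at with Eif2s3x, and their values are not reported here. The members and lists were chosen with earlier results of these data known. Some genes of the lists are not reported here by name.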

Additional observations from a re-analysis of the deposited data

Results flagged for a closer look

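For 19 of the 43 genes called on CCl4 the genotype effect differed between CCl4 and oil by limma's interaction term over all 12 libraries. The genes had been chosen for their effect on CCl4, which is part of the term. The term, the log2 effect on CCl4 minus that on oil, was negative for 12 genes, all of them lower in the Lcn2 null on CCl4: Dlec1 (-2.17, adjusted p = 3.3e-06), Upp2 (-2.05), Serpina6 (-1.88), Inmt (-1.75), Cyp2b10 (-1.71), Cth (-1.31), Aldh1b1 (-1.16), Sardh (-1.10), Bhmt (-1.09), Asl (-1.05), Akr1d1 (-1.02) and Aadac (-0.77, adjusted p = 0.039). All 12 had a fold change above 0 on oil, from 0.07 for Aadac to 1.42 for Dlec1. It was positive for Fdps (1.04), Rasgrf2 (1.43), Gm10524 (1.52), Rsad2 (1.90), Cyp3a41a (2.04), Cib3 (2.05) and Rnu3b4 (4.28). In Cib3 the null was lower under both injections, by more on oil. The value of Rnu3b4 depends on the pseudocount, since its wild type libraries on CCl4 held 0 reads.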

How the results depend on the processing

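Of the 43 genes called by limma, 15 higher and 28 lower in the Lcn2 null, 12 remained called whichever single library was left out. The counts then ran from 6 to 51 higher and from 10 to 46 lower. Without a variance trend 7 and 4 genes were called, edgeR called 13 and 18, and DESeq2 called 69 and 115. The other pseudocounts, the filter at 1 CPM, both rescalings, the fit of 12 libraries and dropping the fold threshold gave 11 to 15 higher and 24 to 31 lower. TMM held 36 of the 43 and size factors 36. None of the named results changed direction past a threshold. The cause of the differences between the tests was not tested.

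Same-numbered libraries of the 2 genotypes did not deviate together (correlations of their deviations from the group means 0.019, -0.117 and -0.0809), so the numbers were not taken as pairs. With the replicate number as a block in limma 33 genes were called higher and 43 lower, and 41 of the 43 were held.

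With 3 libraries per group and 7582962 to 14591487 reads each, genes under a few CPM rest on few reads, and list medians from 0.00 to 0.04 were at or below 0 under TMM scaling.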
